A study of Mus musculus with 8 samples.

Results

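Meiotic recombination and the tethering of telomeres to the nuclear envelope were followed through 10 genes (Zcwpw1, Majin, Terb1, Prdm9, Spo11, Dmc1, Msh4, Msh5, Hormad1 and Hormad2), of 19938 genes that have a probe set of their own on the array. The 10 genes were chosen by name, with earlier results of these data known. Shares over all genes are therefore given beside their counts for scale only. All 10 were measured, 9 by 1 probe set each and Hormad1 by 2. Expression was compared between E14 mouse embryonic stem cells (ESCs), a feeder-independent line kept here in medium with LIF, that stably carried an shRNA against Kdm2b (knockdown, 4 arrays) and the same cells with a scrambled shRNA (control, 4 arrays). Both shRNAs were delivered by a lentivirus with puromycin selection, so that control cells also carry a vector and were selected. The knockdown samples were of passages 27, 28, 29 and 30 and the control samples of passages 28, 29, 30 and 31 for replicates 1 to 4. With 1 hairpin per group and no independent derivation of lines stated, the p-values measure the spread between these samples, not that over hairpins or lines.

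The hairpin sequences that define the groups are shown 5′ to 3′, in lower case because no position is set apart.
shKdm2b: cgctgtggaaatatctgtcat
shScrambled: cctaaggttaagtcgccctcg

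In meiosis, homologous chromosomes pair and exchange DNA before they are separated. PRDM9 marks the sites with histone methylation, ZCWPW1 reads these marks, and SPO11 cuts the DNA there. DMC1 then carries the broken end into the homologous chromosome, the MSH4-MSH5 pair holds the joint molecules that become crossovers, and HORMAD1 and HORMAD2 sit on the chromosome axis and take part in break formation and its surveillance. TERB1 and MAJIN, with TERB2, attach telomeres to the inner nuclear membrane so that chromosomes can be moved to find each other. ESCs do not undergo meiosis, and many germline genes are kept silent or low in them by DNA methylation and by polycomb complexes. KDM2B, the protein depleted here, binds non-methylated CpG dinucleotides and is a subunit of a variant PRC1 complex.

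Of the 10 genes, 4 rose in the knockdown arrays (Hormad2, Zcwpw1, Majin and Dmc1), 0 fell and 6 did not pass in limma. A gene met the rule of the study's methods (the gene rule) when the majority of its probe sets passed an adjusted p of 0.05 and the most significant one changed at least 1.5-fold, which is 0.58 on the log2 scale. Over all genes tested, 1.42% were called higher and 1.43% lower, 2.85% in either direction. Without the limit on size the 10 genes again gave 4 higher and 0 lower, where 5.75% of all genes were higher and 4.55% lower, and an unadjusted p under 0.05 gave the same counts, against 16.8% higher and 13.6% lower of all genes. Of the log2 fold changes 9 were above 0, and their median was 0.21, against a median of 0.05 over all genes tested. In the 4 genes that rose, all knockdown arrays lay above all control arrays, as they did for 11.8% of all genes (9.18% had the opposite order), and in the other 6 the groups overlapped. The arrays give log2 signals that have been normalized to the same distribution, with medians between 8.47 and 8.53, and Kdm2b itself had a log2 fold change of -2.05 (SE, the standard error, 0.18, limma adjusted p = 0.000891). The first principal component (51.7% of the variance) separated the groups, at -48.7 to -5.51 for knockdown and 22.4 to 33.7 for control arrays, with knockdown replicate 3 nearest to the controls, and without that array the same 4 of the 10 genes rose. Signal also depends on the probes, so that each gene is compared only with itself.

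**Figure D1:**
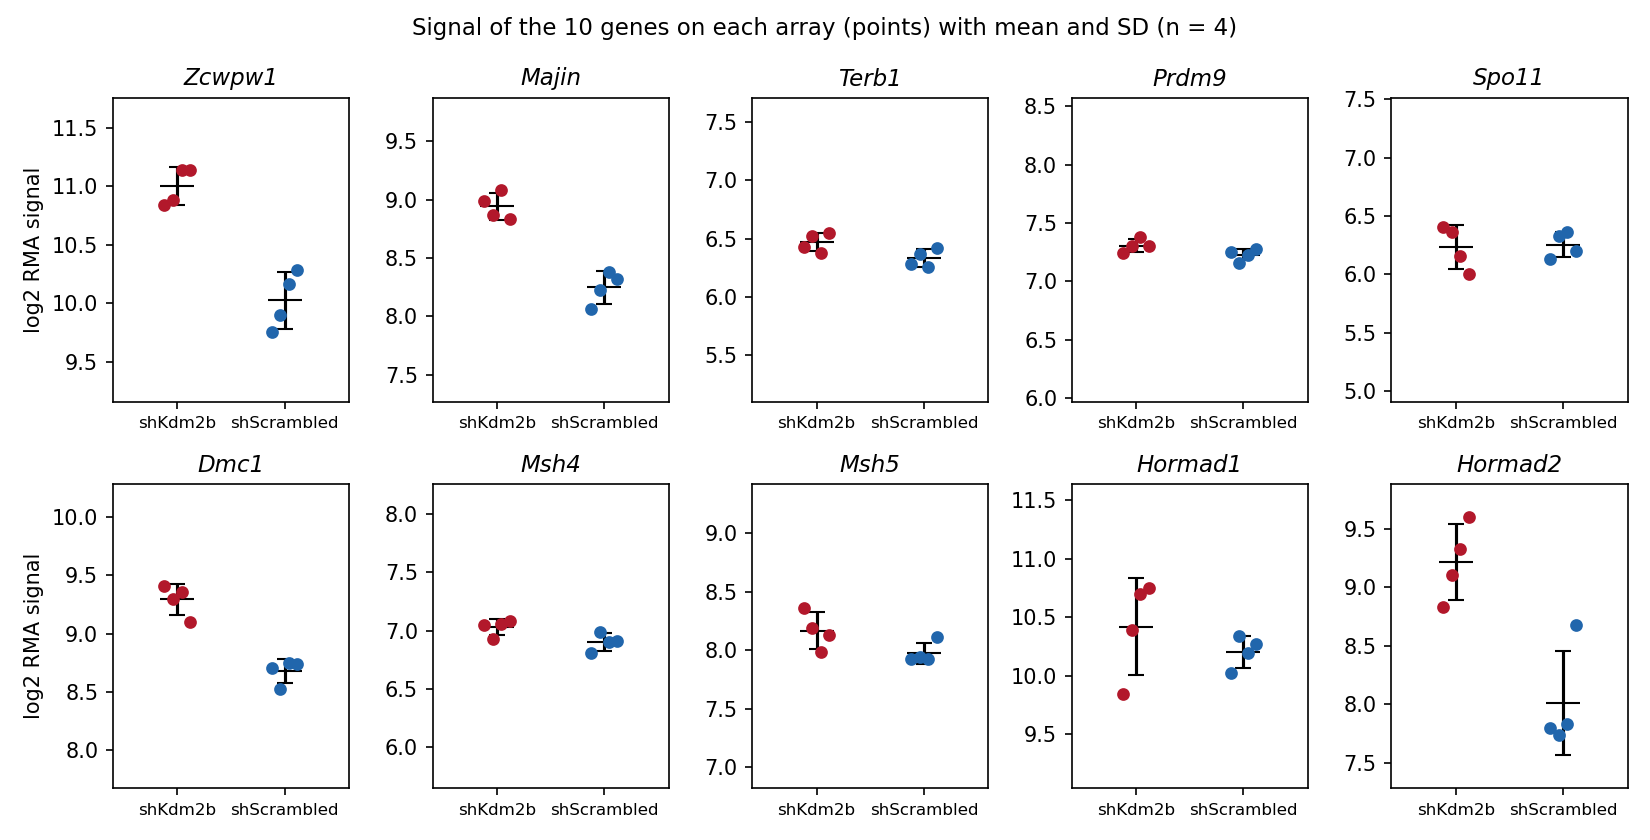
Log2 RMA signal of the 10 genes on each of the 8 arrays, with knockdown arrays (shKdm2b, red) left of control arrays (shScrambled, blue) and every panel spanning the same range of log2 units. Points are arrays and black bars are the mean and SD (n = 4 per group). The groups are apart for Zcwpw1, Majin, Dmc1 and Hormad2 and overlap for the other 6 genes.

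Because KDM2B recognizes CpG dinucleotides, the stretches before the annotated transcription starts are shown for the genes that rose, where the RefSeq table holds one, and for Hormad1, which overlapped between the groups. The table (GRCm38.p6) gave a window for 8 of the 10 genes and none was used for Majin and Spo11. Each sequence is the 250 bases before a start, 5′ to 3′ on the strand of the gene, with CG dinucleotides in capitals. The reference is of another mouse strain than E14.
Zcwpw1, chr5:137787081-137787330, plus strand: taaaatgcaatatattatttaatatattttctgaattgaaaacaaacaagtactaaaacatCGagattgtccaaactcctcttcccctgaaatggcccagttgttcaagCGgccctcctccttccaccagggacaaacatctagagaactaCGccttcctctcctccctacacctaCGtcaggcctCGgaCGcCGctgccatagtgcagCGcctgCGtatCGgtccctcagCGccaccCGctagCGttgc
Dmc1, chr15:79605110-79605359, minus strand: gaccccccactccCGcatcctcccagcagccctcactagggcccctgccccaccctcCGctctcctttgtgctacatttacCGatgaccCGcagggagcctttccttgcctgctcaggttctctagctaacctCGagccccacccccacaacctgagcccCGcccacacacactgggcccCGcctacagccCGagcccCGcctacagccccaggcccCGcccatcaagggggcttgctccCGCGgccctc
Hormad2, chr11:4441083-4441332, minus strand: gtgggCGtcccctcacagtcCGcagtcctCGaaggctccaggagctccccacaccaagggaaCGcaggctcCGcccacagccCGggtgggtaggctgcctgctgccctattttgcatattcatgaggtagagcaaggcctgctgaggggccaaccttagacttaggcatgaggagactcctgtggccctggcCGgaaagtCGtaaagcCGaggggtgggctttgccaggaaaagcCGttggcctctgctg
Hormad1, chr3:95559427-95559676, plus strand: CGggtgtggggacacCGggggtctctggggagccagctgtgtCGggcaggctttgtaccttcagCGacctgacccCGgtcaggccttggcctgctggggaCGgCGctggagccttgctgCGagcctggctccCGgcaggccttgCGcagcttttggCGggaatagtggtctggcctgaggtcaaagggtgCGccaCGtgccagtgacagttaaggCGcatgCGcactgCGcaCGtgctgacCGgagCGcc

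The Zcwpw1 window held 13 CG dinucleotides, and a second annotated start of the gene had 16 in its window. The Dmc1 window held 12 and that of Hormad2 10, against 19 for Hormad1, 22 for Msh5, 13 for Terb1, 9 and 13 for the starts of Prdm9, and 4 for Msh4. The median over all 32851 windows of the table was 6, and 66.5% of them had fewer CG dinucleotides than Dmc1. The genes that rose were thus neither the richest nor the poorest in CG among those with a window. An E-box (CACGTG, its own reverse complement) occurred in 6.02% of all windows, and a short E2F-type motif (GCGGGAA, searched on both strands) in 3.82%. Hormad1 had 2 E-boxes and 1 E2F-type motif in its window, and 0.338% of all windows held at least 1 of each. Msh5 and a start of Prdm9 had 1 E2F-type motif each, and the windows of Zcwpw1, Dmc1 and Hormad2 held neither motif. A match describes the letters only and is not evidence of binding.

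Zcwpw1, the reader of PRDM9-made histone marks, had log2 signals of 10.84, 10.88, 11.14 and 11.14 in the knockdown arrays (replicates 1 to 4) and 9.75, 9.90, 10.16 and 10.28 in the control arrays, in the same order. The lowest knockdown array lay 0.56 above the highest control array. This gave a log2 fold change of 0.98 (SE 0.13, 95% confidence interval, CI, 0.68 to 1.27, limma adjusted p = 0.00505), or 1.97-fold. The call was kept without any 1 of the 8 arrays, with log2 fold changes of 0.89 to 1.06 and adjusted p of 0.00723 to 0.0209 from limma. In the RefSeq table the Zcwpw1 gene overlaps Pilra, an immune receptor gene, whose log2 fold change was 0.13 (SE 0.08, limma adjusted p = 0.341). Mepce, a neighbour that encodes an enzyme capping 7SK RNA, had a log2 fold change of -0.37 (SE 0.09, limma adjusted p = 0.0355), short of 1.5-fold.

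Prdm9, whose product makes the marks that ZCWPW1 reads, did not meet the gene rule. Its log2 signals were 7.24, 7.30, 7.38 and 7.30 in the knockdown arrays (replicates 1 to 4) and 7.25, 7.16, 7.23 and 7.28 in the control arrays, in the same order. Control replicates 1 and 4 lay above the lowest knockdown array, so that the groups overlapped. The log2 fold change was 0.08 (SE 0.05, 95% CI -0.05 to 0.20, limma adjusted p = 0.408).

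Spo11, which encodes the enzyme that cuts the DNA, was the only gene of the 10 with a log2 fold change below 0. Its log2 signals were 6.41, 6.36, 6.16 and 6.0 in the knockdown arrays and 6.13, 6.33, 6.36 and 6.20 in the control arrays. The knockdown arrays spanned the whole range of the control arrays. The log2 fold change of -0.02 (SE 0.10, 95% CI -0.25 to 0.21, limma adjusted p = 0.913) changed sign when 1 of several arrays was left out.

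Dmc1, the meiotic recombinase gene, had log2 signals of 9.41, 9.30, 9.36 and 9.10 in the knockdown arrays and 8.71, 8.53, 8.75 and 8.74 in the control arrays. Every knockdown array was above every control array by at least 0.35. Knockdown exceeded control by 0.61 (SE 0.08, 95% CI 0.42 to 0.80, limma adjusted p = 0.00566), or 1.53-fold, just above the limit of the gene rule. Without knockdown replicate 1 or control replicate 2 it was 0.57 and 0.56, below 1.5-fold, at adjusted p = 0.0135 and 0.0165 from limma. The change was therefore past the p threshold in these fits and lost the call by its size. Kdelr3, a gene near Dmc1 in the RefSeq table, encodes a receptor that returns proteins to the endoplasmic reticulum and rose by 2.22 (SE 0.36, limma adjusted p = 0.0102). Ddx17, the gene listed between Kdelr3 and Dmc1, had a log2 fold change of -0.06 (SE 0.05, limma adjusted p = 0.455). The gene models of Kdelr3 and Dmc1 do not overlap in that table, and whether transcripts of Kdelr3 reach the Dmc1 probe set was not tested.

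Msh4 and Msh5, the genes of the pair that holds crossover intermediates, did not meet the gene rule. Msh4 had log2 signals of 7.05, 6.93, 7.06 and 7.08 in the knockdown arrays and 6.81, 6.99, 6.90 and 6.91 in the control arrays. Control replicate 2 alone lay above the lowest knockdown array. This gave a log2 fold change of 0.13 (SE 0.06, 95% CI -0.01 to 0.27, limma adjusted p = 0.213). Msh5 had log2 signals of 8.36, 8.19, 7.98 and 8.13 in the knockdown arrays and 7.92, 7.94, 7.92 and 8.11 in the control arrays. Control replicate 4 alone lay above the lowest knockdown array. The log2 fold change of Msh5 was 0.19 (SE 0.09, 95% CI -0.01 to 0.39, limma adjusted p = 0.207).

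Among the genes of the chromosome axis, Hormad2 showed the largest log2 fold change of the 10 genes. Its log2 signals were 8.83, 9.11, 9.33 and 9.60 in the knockdown arrays and 7.80, 7.74, 7.83 and 8.68 in the control arrays. Control replicate 4 lay well above the other controls, and yet 0.15 below the lowest knockdown array. The log2 fold change was 1.20 (SE 0.23, 95% CI 0.67 to 1.74, limma adjusted p = 0.0204), or 2.30-fold. Without control replicate 4 it was 1.43, the highest value when 1 array was left out. The call was lost on leaving out replicate 2 or 4 of the knockdown, or 2 or 3 of the control, with limma adjusted p between 0.0570 and 0.0645 and with log2 fold changes of 1.08 to 1.24.

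Hormad1, the paralogue, varied among the knockdown arrays instead. Its brighter probe set read 9.84, 10.39, 10.70 and 10.75 in the knockdown arrays and 10.02, 10.34, 10.19 and 10.27 in the control arrays. Knockdown replicate 1 was below all controls and the other 3 knockdown arrays above them. Knockdown exceeded control by 0.22 (SE 0.19, 95% CI -0.21 to 0.64, limma adjusted p = 0.50). The 1.5-fold limit lies inside this interval. The other probe set that names Hormad1 read 7.09, 8.07, 8.96 and 8.84 in the knockdown arrays and 7.77, 8.27, 8.26 and 8.23 in the control arrays. It too had its lowest value in knockdown replicate 1, with a log2 fold change of 0.11 (SE 0.38, limma adjusted p = 0.883).

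Majin and Terb1, whose products act in the same telomere complex, were unequal in these arrays. Majin, the gene of the membrane anchor, had log2 signals of 8.99, 8.87, 9.08 and 8.83 in the knockdown arrays and 8.06, 8.23, 8.38 and 8.32 in the control arrays. The groups were apart by 0.45. This gave a log2 fold change of 0.69 (SE 0.09, 95% CI 0.49 to 0.89, limma adjusted p = 0.00435), or 1.62-fold, and the call was kept without any 1 array. Terb1, the gene of the subunit that binds the telomere protein TRF1, had log2 signals of 6.43, 6.52, 6.38 and 6.55 in the knockdown arrays and 6.28, 6.37, 6.26 and 6.42 in the control arrays. Control replicate 4 alone lay above the lowest knockdown array. The log2 fold change was 0.14 (SE 0.06, 95% CI -0.01 to 0.28, limma adjusted p = 0.214).

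**Figure D2:**
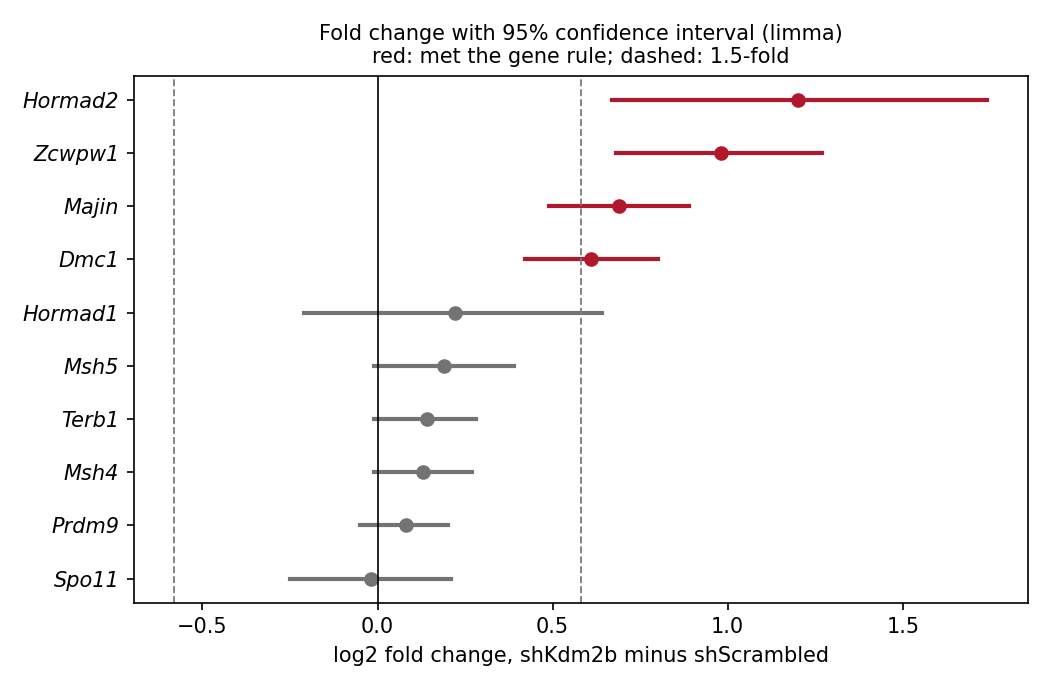
Log2 fold change (knockdown minus control) of the 10 genes, with the 95% confidence interval from limma. Dashed lines mark 1.5-fold, red genes met the gene rule and grey genes did not. Hormad2, Zcwpw1, Majin and Dmc1 lie at 1.20, 0.98, 0.69 and 0.61, and the other 6 genes between -0.02 and 0.22.

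The probe sets of Terb1, Spo11 and Msh4 were dim, with control means of 6.33, 6.25 and 6.90 on arrays whose lower quartiles were 6.99 to 7.06. Near the background, signal follows the amount of transcript less closely, so that these intervals are on the change in signal. None of the 4 genes that rose was among them.

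The passage of the samples is a known difference between the groups, since the knockdown cells of a given replicate number were 1 passage younger than the control cells. At the shared passages 28, 29 and 30, knockdown minus control was 1.13, 1.24 and 0.98 log2 units for Zcwpw1 and 1.31, 1.59 and 1.77 for Hormad2. It was 0.81, 0.85 and 0.45 for Majin and 0.59, 0.84 and 0.35 for Dmc1. All 4 genes were thus higher in the knockdown array at every shared passage. That direction was fixed in advance, because all their knockdown arrays lay above all their control arrays. Only the sizes of the differences add to it. With passages 28 to 30 alone and the passage as a block, Zcwpw1 and Hormad2 kept their calls and 2 genes lost them, Majin at adjusted p = 0.0702 and Dmc1 at 0.102 from limma. That fit holds fewer arrays, and their log2 fold changes in it were 0.70 and 0.59.

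Zcwpw1 had higher signals at later passages in both groups, and Hormad2 and Hormad1 did so steadily only in the knockdown arrays. Among the controls, Hormad2 was high at passage 31 alone. Hormad1 was lowest there at passage 28, without a steady rise after it. With the passage as a covariate over all 8 arrays, the slope was 0.15 log2 units per passage for Zcwpw1 (SE 0.03, limma adjusted p = 0.287), 0.26 for Hormad2 (SE 0.06, limma adjusted p = 0.307) and 0.18 for the brighter probe set of Hormad1 (SE 0.06, limma adjusted p = 0.395). No probe set of the array had a slope past the adjusted threshold in limma, and 3868 had an unadjusted p under 0.05. In the same fit the log2 fold changes between knockdown and control were 1.13 for Zcwpw1, 1.47 for Hormad2, 0.73 for Majin, 0.59 for Dmc1 and 0.40 for Hormad1. The first 4 of these met the gene rule, at adjusted p = 0.000652, 0.00286, 0.00989 and 0.0184, while Hormad1 did not, at 0.173 (limma). Passage and replicate number run together within each group and cannot be told apart.

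**Figure D3:**
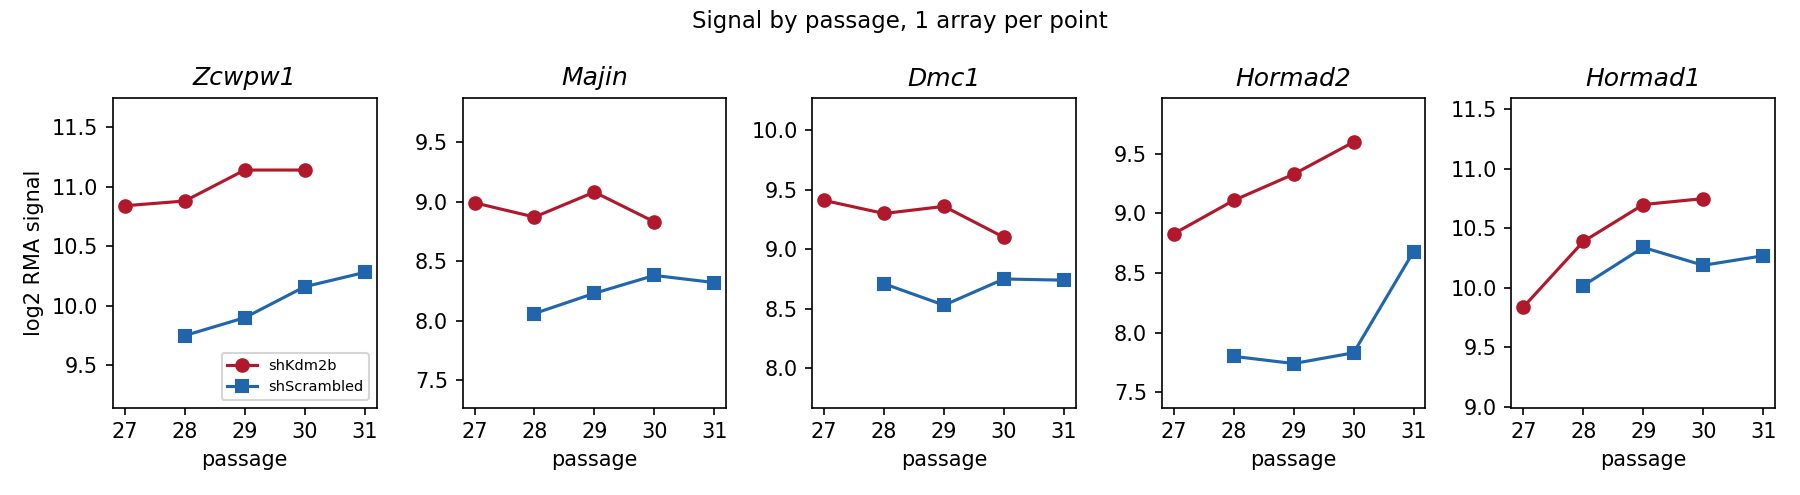
Log2 RMA signal against passage number for the 4 genes that rose and for Hormad1, with 1 array per point, knockdown arrays in red and control arrays in blue. Every panel spans the same range of log2 units. At passages 28, 29 and 30 the knockdown array lies above the control array in all 5 panels.

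Deviations of the arrays from their group means were compared among the 10 genes as a description over the 8 arrays. The highest Pearson correlation was 0.79, between Hormad2 and Zcwpw1, and that of Majin with Zcwpw1 was 0.61. Other pairs of genes that rose were lower: Dmc1 had -0.01 with Zcwpw1, 0.50 with Majin and -0.17 with Hormad2. Majin had 0.11 with Hormad2. Pairs with at least 1 gene that did not rise ran from -0.68 (Hormad1 and Msh5) to 0.64 (Hormad2 and Prdm9). Over the signals themselves, the genes most like Zcwpw1 were Tkt (0.987), Cpn1 (0.979) and Meioc (0.977), of which Cpn1 and Meioc also met the gene rule, with log2 fold changes of 1.23 and 0.92. Meioc is needed in germ cells to keep up the meiotic programme. Those most like Majin were Ttyh1, Mtus2 and Zfp653, at 0.979 to 0.988, and those most like Dmc1 were Rnf141, Mier3 and Ufsp2, at 0.979 to 0.992, none of which met the rule. Those most like Hormad2 were Hpca, Usp26 and 4933427D06Rik, at 0.975 to 0.979, and the last 2 rose by 2.50 and 1.41. Over the deviations alone the closest genes were others, Vac14, Zfp871 and Cbx5 for Zcwpw1 (0.986 to 0.995), Msto1, 4921509C19Rik and G3bp1 for Majin (0.975 to 0.977), Olfr512, Pgap3 and Btbd3 for Dmc1 (0.962 to 0.985), and Pabpc1, Trim6 and Slc25a37 for Hormad2 (0.983 to 0.993). None of these 12 met the gene rule. For a gene whose groups are apart, a correlation over the signals carries the group difference itself. By either measure the matches are the closest of 19938 genes over only 8 arrays. Shared control was not tested.

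The neighbours of the 10 genes on the chromosome were mostly without a call. Of 40 measured flanking genes (the nearest 2 on each side in the RefSeq table), 2 rose and 0 fell, with 38 short of the gene rule in limma. Over all genes, 1.42% were higher and 1.43% lower by that rule. Besides Kdelr3, Bmp7, a gene near Spo11 that encodes a growth factor, rose by 1.14 (SE 0.27, limma adjusted p = 0.0366). Majin, Zcwpw1 and Hormad2 had no flanking gene that met the rule.

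Among other genes of the same pathways, listed by role with earlier results of these data known, some rose and none fell by the gene rule. Of 71 such genes on the array, 6 rose and 0 fell, with 65 short of the gene rule (limma), beside the 1.42% and 1.43% over all genes. Their median log2 fold change was 0.02, against 0.05 over all genes. Some of them also act outside meiosis, such as Rpa1, Chek1 and Lmna, so that these counts and the median are not of meiosis-specific genes alone. With no limit on the size of the change, 11 were higher and 4 lower at an adjusted p under 0.05, and at an unadjusted p under 0.05 there were 18 and 17, which is to be read against the 16.8% and 13.6% of all genes at that limit. Without the limit on size the calls ran in both directions, and the changes past 1.5-fold were rises.

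Of 9 genes of break formation, 1 rose and 0 fell by the gene rule, while 2 were up and 2 down at an unadjusted p under 0.05. Rec114, which encodes a partner of the SPO11 machinery, averaged 9.85 ± 0.22 in the knockdown arrays and 8.70 ± 0.22 in the control arrays (SD, n = 4 each), a log2 fold change of 1.15 (SE 0.14, limma adjusted p = 0.00351). Mei1, another gene needed for the breaks, had a log2 fold change of 0.31 (SE 0.06, limma adjusted p = 0.0223), short of 1.5-fold.

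Of 17 genes of strand exchange, 2 rose and 0 fell by the gene rule. At an unadjusted p under 0.05, 5 were up and 2 down (all genes 16.8% and 13.6%). Those down were Spata22 (log2 fold change -0.38, SE 0.09, limma adjusted p = 0.0393) and Brca1 (-0.20, SE 0.05, limma adjusted p = 0.0406), both short of 1.5-fold. Hsf2bp, whose product brings BRCA2 to meiotic breaks, averaged 12.34 ± 0.09 in the knockdown arrays and 11.56 ± 0.05 in the control arrays (SD, n = 4 each), and rose by 0.78 (SE 0.06, limma adjusted p = 0.000548). Brme1, the gene of its partner protein, had a log2 fold change of 0.26 (SE 0.06, limma adjusted p = 0.0369). Meiob, which encodes a binder of single-stranded DNA, averaged 6.05 ± 0.43 and 5.22 ± 0.15 in the knockdown and control arrays (SD, n = 4 each), with a log2 fold change of 0.83 (SE 0.20, limma adjusted p = 0.0380). Both means lie below the lower quartiles of the arrays, near background, so that this is a change in a dim signal, and the probe set drops out under the filter on dim probe sets. The call on Meiob was lost without any 1 array but knockdown replicate 3, with limma adjusted p between 0.0637 and 0.106.

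Of 15 genes of crossover formation, 2 rose, Cntd1 and Shoc1, and 0 fell by the gene rule. At an unadjusted p under 0.05, 4 were up and 5 down (all genes 16.8% and 13.6%). With no limit on size, 4 were higher and 2 lower at an adjusted p under 0.05. The lower ones were Ccnb1ip1 (log2 fold change -0.34, SE 0.07, limma adjusted p = 0.0290) and Cdk2 (-0.20, SE 0.05, limma adjusted p = 0.0488). Cntd1, which encodes a cyclin-like protein that sets the number of crossovers, had log2 signals of 9.83, 9.14, 8.73 and 9.62 in the knockdown arrays and 8.34, 7.82, 7.81 and 8.34 in the control arrays. Its log2 fold change was 1.25 (SE 0.24, limma adjusted p = 0.0206). Shoc1, the gene of an endonuclease-like factor that binds branched DNA, rose by 0.62 (SE 0.14, limma adjusted p = 0.0321). Both calls were lost on leaving out replicate 2 or 4 of the knockdown, or 2 or 3 of the control, with limma adjusted p between 0.0525 and 0.0953. Hfm1, a meiotic helicase gene, had a log2 fold change of 0.54 (SE 0.09, limma adjusted p = 0.0105), just short of 1.5-fold for the more significant of its 2 probe sets. Shoc1 and Hfm1 had control means of 6.83 and 6.91, below the lower quartiles of the arrays, so that these are changes from dim signals.

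Of 15 genes of HORMA domain proteins and of the checkpoint, 1 rose and 0 fell by the gene rule. At an unadjusted p under 0.05, 1 was up and 6 were down (all genes 16.8% and 13.6%), and the median log2 fold change was -0.15. Mad2l2, which encodes a HORMA domain protein of DNA repair, rose by 0.61 (SE 0.12, limma adjusted p = 0.0192). Its call was lost on leaving out replicate 1 or 2 of the knockdown, or 2, 3 or 4 of the control, with log2 fold changes of 0.54 to 0.62 and limma adjusted p between 0.0352 and 0.0631. Without knockdown replicate 1 the p still passed, at 0.0352, and the call was lost by size. Atm, a kinase gene of the response to breaks, had a log2 fold change of -0.50 (SE 0.15, limma adjusted p = 0.0732), and passed without knockdown replicate 3, at -0.60 and 0.0305. Of 15 genes of telomere attachment, 0 met the gene rule in limma, while 6 were up and 2 down at an unadjusted p under 0.05 (all genes 16.8% and 13.6%). Sun1, which encodes the inner membrane protein that links telomeres to the cytoskeleton, averaged 12.16 ± 0.14 in the knockdown arrays and 11.61 ± 0.04 in the control arrays (SD, n = 4 each). Its log2 fold change was 0.55 (SE 0.07, limma adjusted p = 0.00556), short of 1.5-fold, and 0.62 without knockdown replicate 3, which met the rule. Sun2, its paralogue, had a log2 fold change of 0.34 (SE 0.11, limma adjusted p = 0.0898).

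**Figure D4:**
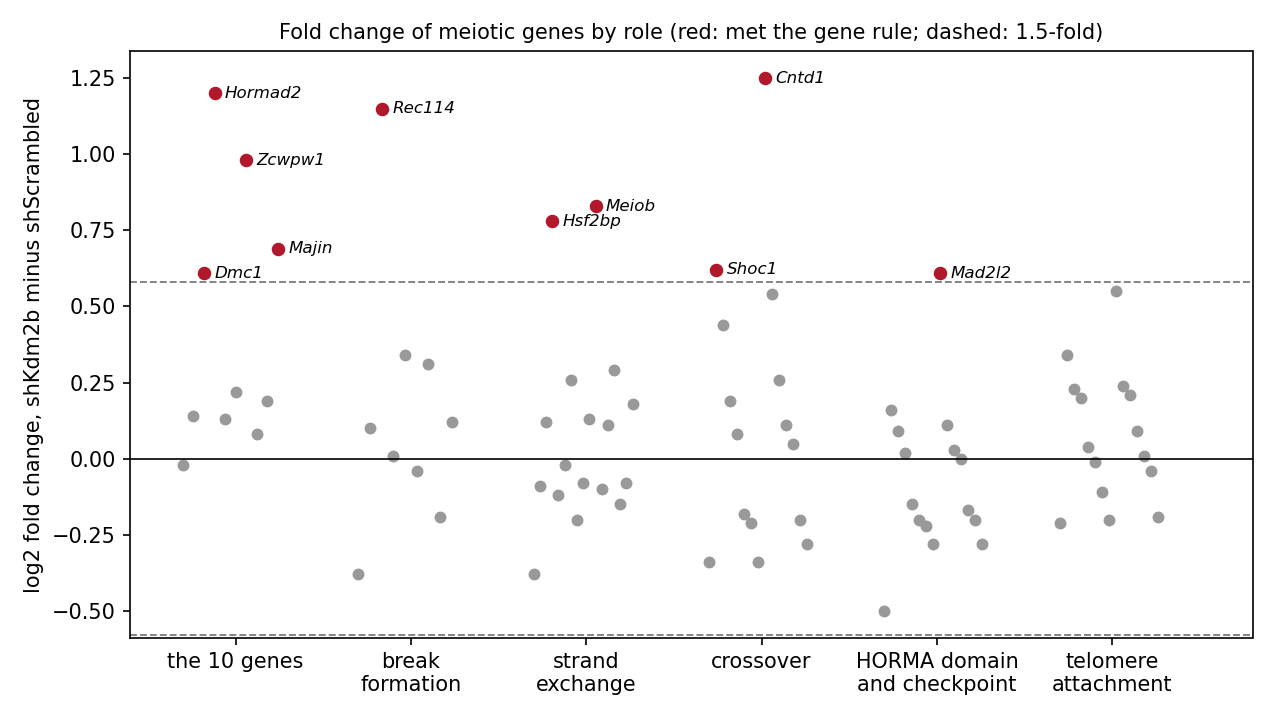
Log2 fold change (knockdown minus control) of the 10 genes and of 71 further genes of the same pathways, not all specific to meiosis, in 5 groups by role. Each point is a gene, red and named where it met the gene rule, and dashed lines mark 1.5-fold. The 6 further genes that rose are Rec114, Hsf2bp, Meiob, Cntd1, Shoc1 and Mad2l2, and no gene lies below the lower dashed line.

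Of 12 genes of the synaptonemal complex and of meiotic cohesin, in which the recombination proteins act, 3 rose and 0 fell (limma), and at an unadjusted p under 0.05 there were 4 higher and 2 lower (all genes 16.8% and 13.6%). Stag3 and Smc1b, which encode cohesin subunits, rose by 1.87 (SE 0.09, limma adjusted p = 5.64e-05) and by 1.21 (SE 0.20, limma adjusted p = 0.0117). Sycp3, the gene of an axis protein, rose by 0.61 (SE 0.09, limma adjusted p = 0.00656). The call on Sycp3 was lost by its size without knockdown replicate 1 or control replicate 2, at log2 fold changes of 0.58 and 0.53, and likewise with array weights, at 0.55. It was also lost at passages 28 to 30 alone, at 0.59 and a limma adjusted p of 0.109.

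Of 27 genes whose products regulate meiotic genes, 1 rose and 0 fell, with 26 short of the gene rule (limma), while 3 were up and 8 down at an unadjusted p under 0.05 (all genes 16.8% and 13.6%). Dmrt1, which encodes a transcription factor of the gonad, rose by 0.98 (SE 0.10, limma adjusted p = 0.00204), a call lost at passages 28 to 30 alone (limma adjusted p = 0.0722). Setdb1, the gene of a histone H3K9 methyltransferase, had a log2 fold change of -0.29 (SE 0.06, limma adjusted p = 0.0302), short of 1.5-fold. The lowest log2 fold change of the list was that of Dnmt3b, a DNA methyltransferase gene, at -0.81 (SE 0.26, limma adjusted p = 0.0884). It was past 1.5-fold in size but not past the p threshold, and its groups overlapped. Stra8, the inducer of the meiotic programme, read 7.94, 8.63, 7.95 and 8.08 in the knockdown arrays and 8.11, 7.75, 7.01 and 7.42 in the control arrays, so that the groups overlapped.

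Markers of ESCs and of other cell types were read on the same arrays. Of all genes, 1.42% were higher and 1.43% lower by the gene rule. At an unadjusted p under 0.05 these shares were 16.8% and 13.6%. Of 8 ESC markers, 0 met the gene rule (limma) and 5 were higher at an unadjusted p under 0.05, with list means of 13.08 to 13.13 in the knockdown arrays and 12.74 to 13.08 in the control arrays. Of 10 markers of meiotic prophase, 3 rose (Stag3, Smc1b and Sycp3, as above), with list means of 8.71 to 8.95 and 8.27 to 8.53 in knockdown and control arrays, while Sycp1, the gene of a synaptonemal complex protein, read 7.02 to 7.95 in knockdown and 7.99 to 8.92 in control arrays (log2 fold change -0.79, limma adjusted p = 0.0990). Of 11 germ cell markers 1 rose, Tex101 (log2 fold change 0.69), while Ddx4 had -0.40 (limma adjusted p = 0.0800) and at an unadjusted p under 0.05 there were 6 higher and 1 lower, with list means of 9.20 to 9.44 in knockdown and 8.99 to 9.23 in control arrays. Of 7 markers of primordial germ cells 1 rose, Prdm14 (log2 fold change 0.59), while Dppa3 had -0.51 (limma adjusted p = 0.0742) and at the unadjusted limit there were 1 higher and 1 lower, with list means of 9.51 to 10.01 and 9.46 to 9.84. Of 8 spermatid and 7 Sertoli and granulosa cell markers, 0 met the rule (limma), while in each list 1 was up and 1 down at an unadjusted p under 0.05. Of 6 primitive endoderm markers 0 met the rule, with 2 higher and 1 lower at that limit. The higher ones were Gata4 and Gata6 (log2 fold changes 0.40 and 0.32), and the lower one was Dab2 (-0.95, limma adjusted p = 0.0525). Of 7 fibroblast markers 1 rose, Thy1 (log2 fold change 0.72), while Dcn had -0.35 (limma adjusted p = 0.0533). At the unadjusted limit 2 of them were higher and 1 lower. Of 4 epiblast markers 0 met the rule, with 0 higher and 2 lower at that limit. All 6 measured genes listed for the 2-cell-like state, a transient state of some ESCs, fell. Their list means were 8.13 to 8.28 in the knockdown arrays and 9.61 to 10.35 in the control arrays. The list includes Dppa2 and Dppa4, regulators of that state rather than markers of it. Their control means of 13.81 and 11.45 raise the list means. Zscan4c, Zscan4d and Tcstv1 of the same list were not measured. The part of these shifts in the changes of the recombination genes was not tested. In RNA from whole cultures, more transcript per cell and more cells with the transcript cannot be told apart.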

How the data were processed

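Total RNA of 4 knockdown and 4 control E14 ESC samples was measured on Affymetrix Mouse Gene ST arrays, each sample on 1 array. The authors deposited log2 values, made from the probe intensities by RMA with oligo 1.18.1, which corrects background, equalizes the distributions and summarises probes into probe sets. Their build and annotation were not given in the sources used here. Probe sets were named through GEO's platform annotation, with symbols updated by gene identifier through RefSeq (GRCm38.p6). Of 35556 probe sets, 21789 name 1 gene, 1621 several and 12146 none, and only the first kind named a gene.

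limma 3.58.1 in R 4.3.3 was fitted over all probe sets (lmFit and eBayes, 2 groups, no covariate), with Benjamini-Hochberg adjustment. The most significant probe set stands for a gene. The script was checked on simulated data. Same-numbered arrays deviated together from their group means (correlations 0.118 to 0.355, against -0.231 to 0.0747 for other pairs), the samples were collected in parallel, and the numbers count as a pairing. Exact two-sided permutation tests of each gene over the 8 arrays cannot give a p below 0.0286, or 0.125 within the pairs.

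The 10 genes and all lists were chosen with earlier results of these data known. Named genes were the 10, Kdm2b, those of each pathway list that met the gene rule, the 2 with the smallest p (3 for the synaptonemal list), and the 3 most correlated with each gene that rose. Pilra, Mepce, Kdelr3, Ddx17, Bmp7, Spata22, Brca1, Stra8, Sycp1, Tex101, Ddx4, Prdm14, Dppa3, Thy1 and Dcn were added after their values were seen. So were Ccnb1ip1, Cdk2, Dnmt3b, Inha, Wt1, Gata4, Gata6, Dab2, Dppa2 and Dppa4. Alternatives were a replicate block, arrays left out, passage, a filter on dim probe sets, other priors, weights and normalization, averaged probe sets and no fold limit. Figures were drawn with matplotlib 3.10.9.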

Additional observations from a re-analysis of the deposited data

Results flagged for a closer look

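In 2 of the genes examined, 1 array of a group of 4 stood far from the other 3, by a gap that was large against the range of the group. For Hormad2, control replicate 4 read 8.68 and the other controls 7.74 to 7.83, a gap of 0.911 of the range. For Msh5, control replicate 4 read 8.11 and the other controls 7.92 to 7.94, a gap of 0.891 of the range. The same array was the far one for both genes. Chance gives such a gap in about 1 in 20 groups, and 56 groups of 4 were examined (28 genes).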

How the results depend on the processing

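The 4 rises among the 10 genes remained 4 under a replicate block (number as factor), which changed no call on the 10 genes, Kdm2b and the 17 genes named from the pathway lists (calls on the other named genes were not compared, 6 of the 71 further genes again rose, and 317 and 335 genes of the array were higher and lower). With 1 array left out, 2 to 4 of the 10 genes rose and 0 fell, 2 to 7 of the further genes rose and 0 to 1 fell, and 182 to 405 genes of the array were higher and 166 to 424 lower, against 284 and 285. With passages 28 to 30 alone, 2 of the 10 genes, 2 further genes, and 88 and 72 genes of the array met the rule, higher and lower, in a fit of fewer arrays. With the passage as a covariate, chosen after seeing the data, 4 of the 10 and 2 further genes rose (Rec114 and Hsf2bp), with 235 and 226 genes of the array higher and lower. With no fold limit, 11 and 4 further genes and 1147 and 908 genes of the array were higher and lower. Spo11 changed sign with array weights (0.04) and with a second quantile normalization (0.00), and ran from -0.08 to 0.06 with 1 array left out, at adjusted p of 0.686 to 0.990 from limma. The cause was not tested. By the exact permutation test the 4 genes that rose each had p = 0.0286, the smallest possible when all 8 arrays are exchanged freely, and the other 6 had 0.0571 to 0.886. Exchanged only within the 4 pairs of the same number, no exact two-sided p could go below 0.125. The number of arrays and the dim probe sets of Terb1, Spo11, Msh4 and Meiob limit what can be seen. So do the dim control signals of Shoc1 and Hfm1. With the filter on dim probe sets, which removes Meiob, 5 further genes rose.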
